A study of Mus musculus with 8 samples.

Results

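The genes described here are 40 mouse genes of the integrated stress response and of one-carbon metabolism, in heart ventricles with and without Rbx2. They were chosen by gene symbol and comprise transcription factors of the ATF4 axis, kinases and phosphatase subunits that act on eIF2alpha, growth brakes, secreted mitokines, enzymes of serine, asparagine, proline and folate metabolism, amino acid carriers and cytosolic tRNA synthetases. All 40 were found in the deposited table of 35275 genes. Of these, 37 had a mean of at least 0.5 FPKM (counted fragments divided by gene length in kilobases and by library size) over the 8 libraries and were tested, while Fgf21, Slc7a11 and Pycr1 lay below that level. Gdf15 was the 1 tested gene whose WT mean was itself below it.

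PolyA RNA of heart ventricles from adult mice was sequenced in 8 libraries, 4 of genotype WT and 4 of genotype RBX2iCKO, and all 8 samples are labelled as treated with Tamoxifen. RBX2iCKO stands for a knockout of Rbx2 (Rnf7, a RING subunit of cullin ubiquitin ligases) made in the adult heart with Mer-Cre-Mer, a Cre recombinase that tamoxifen activates, driven by the αMHC promoter, which is active in cardiomyocytes. The sources used here do not give strain, sex, exact age or the time after tamoxifen, and they do not say whether the 8 libraries are 8 mice; if not, the spread behind the p-values may be technical. The labels give the cell type as Cardiomyocytes, although the RNA came from minced ventricle.

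The deleted gene followed the labels. Rnf7 was at 36.7, 35.3, 40.7 and 36.5 FPKM in WT replicates 1 to 4 and at 7.53, 7.08, 6.86 and 7.13 FPKM in RBX2iCKO replicates 1 to 4, a log2 difference of -2.23 (SE 0.07, limma adjusted p = 5.8e-07). Esr1, whose hormone-binding part is contained in Mer-Cre-Mer, lay between 0.203 and 2.06 FPKM in WT and between 266 and 391 FPKM in RBX2iCKO. The WT titles begin with MCMWT, but whether the WT mice carried Mer-Cre-Mer is not stated, and the high Esr1 level was seen in RBX2iCKO alone. Loss of Rbx2 and presence of the transgene under tamoxifen therefore cannot be told apart. The 12 cardiomyocyte markers summed to 36784 to 39359 FPKM in WT and to 31540 to 38938 FPKM in RBX2iCKO, so the labelled cell type was present in every library; 2 of the 12 were lower, and 4 after scaling. Depth was even, with 18513924 to 23043686 counted fragments per library. The share of FPKM from mitochondrial-encoded genes was 37.6 ± 1.66% in the WT libraries and 28.2 ± 2.83% in the RBX2iCKO libraries (SD over n = 4, two-sided exact permutation p = 0.0286, the smallest that 70 assignments allow). FPKM is a share of the library, and the median log2 difference of all 13050 tested genes was 0.21, or 0.12 with mitochondrial-encoded genes removed; the cause of this shift was not tested. Median-of-ratios scaling, which sets the typical gene equal between libraries, brought that median to 0.02, and results are given on both scales where they differ.

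In the integrated stress response, kinases that sense unfolded protein, amino acid shortage, viral RNA or haem deficiency phosphorylate the translation factor eIF2alpha. General translation slows, while translation of ATF4 and a few other factors with upstream reading frames is favoured, and ATF4 with its partners then induces genes for amino acid uptake, amino acid synthesis, tRNA charging and redox balance. In heart muscle, mitochondrial defects are known to engage this programme together with serine and folate one-carbon enzymes and the mitokines FGF21 and GDF15.

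Of the 37 tested genes, 17 were higher in RBX2iCKO by limma with a Benjamini-Hochberg adjusted p under 0.05 over all genes tested. These 17 are 45.9% of the genes tested here, beside 33.5% of all 13050 genes called higher. Gdf15 is among the 17 and reached the level for testing only through its RBX2iCKO values. Without Gdf15, 16 were called higher. By the same test 0 were lower, beside 3.52% of all genes; 2 (Vldlr and Slc7a1) were lower at an unadjusted p under 0.05, and limma voom on recovered fragments called 16 higher (34.4% of all genes) and 1 lower, Slc7a1 (3.6%). The median log2 difference of the 37 was 0.25, against 0.21 for all genes. All 17 called genes had no overlap between the 4 WT and the 4 RBX2iCKO values as deposited. In all, 19 of the 37 lay higher without overlap on that scale, beside 34% of all genes. No tested member lay lower without overlap as deposited, beside 3.79%.

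After median-of-ratios scaling, 7 of the 37 stayed higher, or 18.9% beside 8.78% of all genes. They were Atf5, Nupr1, Trib3, Gdf15, Mthfd2, Slc7a5 and Slc1a5, each among the 17 above. Gdf15, tested only through its RBX2iCKO values, is in this count too. On that scale 4 genes were lower, Vldlr, Slc7a1, Mthfd1 and Shmt2, which is 10.8% beside 10.9% of all genes, a share at the level of all genes and so no result about this set. Without overlap, 9 of the 37 lay higher and 6 lower after scaling. The share of all genes was not counted there, so these counts are no result about this set. The 6 lower were Vldlr, Slc7a1, Mthfd1, Shmt2, Gars and Nars. The scaled median of the 37 was 0.08, against 0.02 for all genes. With mitochondrial-encoded genes removed before renormalising, 10 of the 37 were higher and 2 lower, beside 16% and 5.45% of all genes. The same 7 genes higher after scaling also kept a limma adjusted p under 0.05 when any 1 of the 8 libraries was left out of the unscaled fit. Ppp1r15a, Eif4ebp1, Slc38a2 and Sars, not called after scaling, were kept in all of those fits too, which made 11 genes. The number of the 37 called higher was 11 to 16 in those fits, and it was 11 without WT replicate 2. Of all 13050 genes, 4374 were called higher with every library and 2895 without WT replicate 2.

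**Figure D1:**
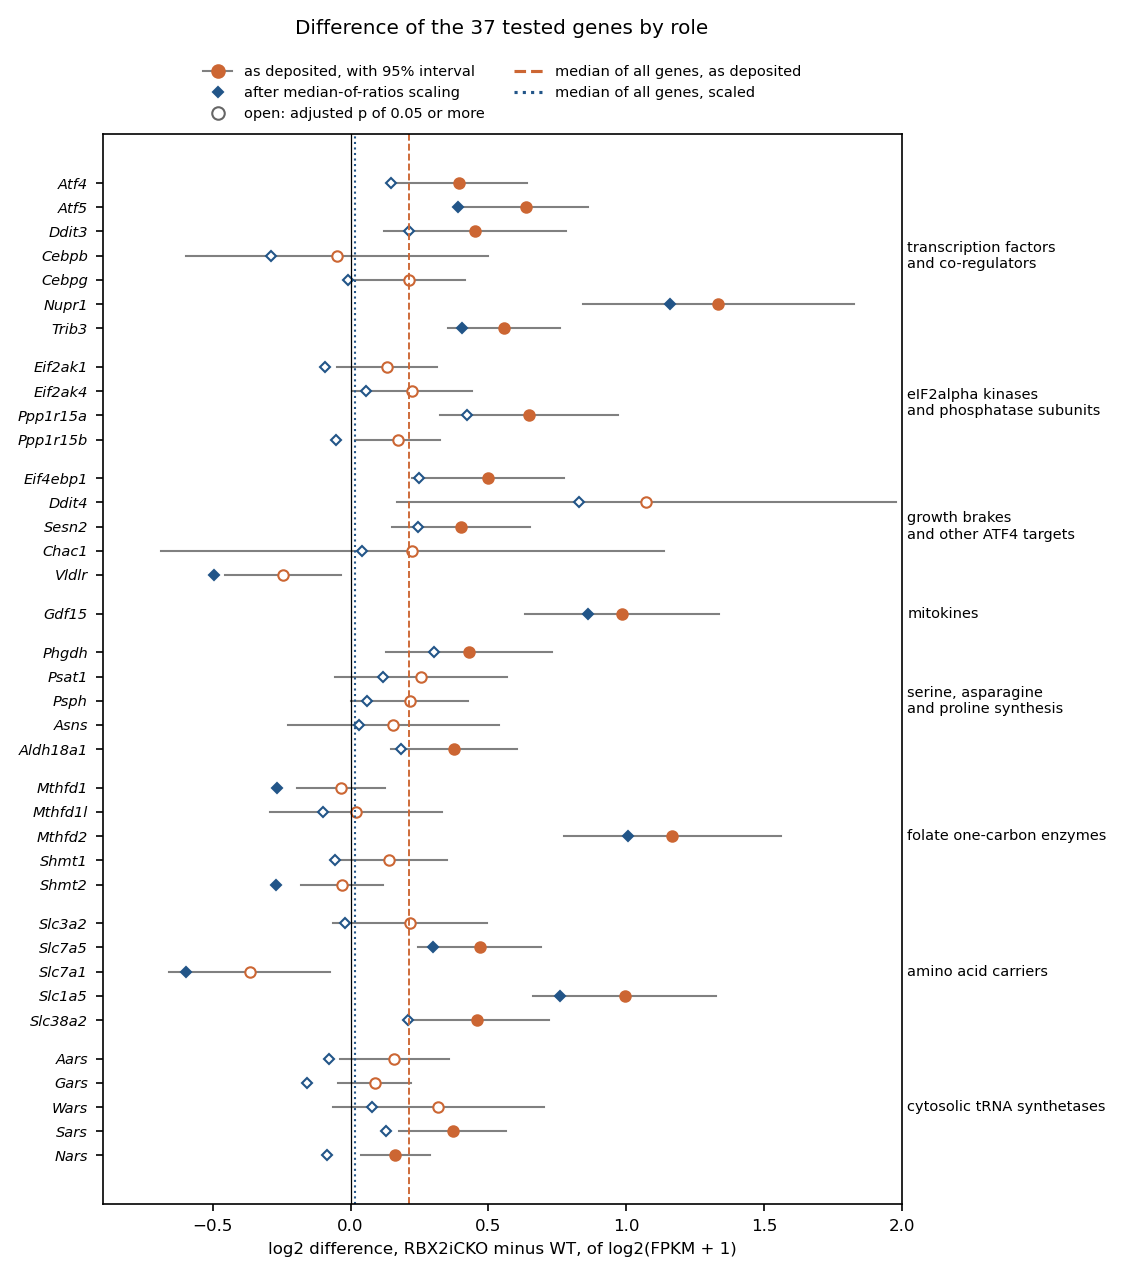
Log2 difference between RBX2iCKO and WT of log2(FPKM + 1) for the 37 tested genes, grouped by role. Circles with bars are the deposited FPKM with the 95% interval from limma, diamonds are the values after median-of-ratios scaling, filled symbols have an adjusted p under 0.05, and the broken and dotted lines are the medians of all genes at 0.21 and 0.02. Nupr1, Mthfd2, Slc1a5 and Gdf15 lie furthest to the right among genes called on both scales, while Ddit4, Chac1 and Cebpb have the widest intervals.

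The labelled tissue holds several cell types, and fewer cells of a type and less RNA per cell cannot be told apart in these bulk samples. Markers of other cell types were counted beside the shares of all genes. These were 33.5% higher and 3.52% lower as deposited, and 8.78% and 10.9% after scaling. As deposited, the mural, atrial and lymphocyte counts of higher markers lay below that share. Of 10 fibroblast markers, 9 were higher, 8 of them also after scaling, and their sum was 919 to 1359 FPKM in WT and 1482 to 2370 FPKM in RBX2iCKO. Of 11 macrophage markers, 5 were higher, 2 of them after scaling, with sums of 121 to 242 and 208 to 406 FPKM. Of 10 endothelial markers, 5 were higher, calls that were all lost on scaling, with sums of 546 to 738 and 816 to 988 FPKM. Among 9 mural markers 2 were higher and 1 lower, and 1 and 1 after scaling, with sums of 301 to 387 and 247 to 408 FPKM, and 3 of the 4 tested neutrophil markers were higher, calls likewise lost on scaling, with sums of 4.98 to 8.70 and 6.93 to 33.1 FPKM. The 2 tested lymphocyte markers did not pass, and sums over all 8 were 0.918 to 4.41 and 2.39 to 6.50 FPKM. Of 7 tested atrial markers 2 were higher, 1 of them after scaling, with sums of 21.2 to 398.6 and 409.7 to 1100.3 FPKM. Ly6g, a neutrophil marker, and Bmp10, an atrial marker, were at 0 in the 4 WT libraries, and no marker of these lists was at 0 in all 8 libraries. The part of these cell types in the results below was not tested.

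The counts by role that follow stand beside 33.5% of all genes called higher as deposited and 8.78% after scaling. Each role holds few genes, and no role was tested as a set. The transcription factors and their co-regulators had 5 of 7 members higher, 3 of them after scaling. Atf4, the factor at the centre of the response, was at 32.4, 26.8, 32.5 and 29.4 FPKM in WT replicates 1 to 4 and at 37.4, 38.2, 49.6 and 36.1 FPKM in RBX2iCKO replicates 1 to 4. Every RBX2iCKO value lay above every WT value, and RBX2iCKO replicate 3 stood above the other RBX2iCKO libraries. Its log2 difference of 0.39 (SE 0.11, limma adjusted p = 0.0223) became 0.15 after scaling (adjusted p = 0.350). The call was lost without WT replicate 2 (adjusted p = 0.0600) and without WT replicate 4 (adjusted p = 0.0515). ATF4 is controlled largely at translation, which RNA levels do not show.

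Atf5 (ENSMUSG00000038539, chr7:44812256-44816658 of mm10), a related factor known for its role in the mitochondrial unfolded protein response, was at 20.2, 18.5, 24.1 and 21.2 FPKM in WT and at 35.3, 32.6, 36.2 and 28.4 FPKM in RBX2iCKO. Its groups were apart, with the lowest RBX2iCKO library, replicate 4, still above the highest WT library. The mean was 1.58-fold higher, with a log2 difference of 0.64 (SE 0.10, limma adjusted p = 0.00314) and a scaled difference of 0.39 (adjusted p = 0.0176).

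Ddit3, which encodes CHOP, a factor linked to cell death under prolonged stress, was at 15.2, 10.5, 16.4 and 15.6 FPKM in WT and at 18.2, 18.3, 24.8 and 18.7 FPKM in RBX2iCKO. The groups did not overlap, WT replicate 2 was the lowest library and RBX2iCKO replicate 3 the highest. The log2 difference of 0.45 (SE 0.15, limma adjusted p = 0.0387) became 0.21 after scaling (adjusted p = 0.293). The call held in 1 of the 8 fits with a library left out, that without WT replicate 3, and the adjusted p was 0.0535 to 0.0709 in the other 7. Some exon bases of Ddit3 overlap Mars on the opposite strand, and the strand setting of the counting is not given in the sources used here, so their reads cannot be told apart there.

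Nupr1 (ENSMUSG00000030717, chr7:126623249-126630861), a small stress-induced chromatin protein that is itself an ATF4 target, was at 1.87, 0.769, 1.36 and 1.79 FPKM in WT and at 6.31, 3.76, 7.20 and 3.76 FPKM in RBX2iCKO. All RBX2iCKO libraries were above all WT libraries, with replicates 1 and 3 higher than replicates 2 and 4. The mean rose 3.63-fold, from 1.45 ± 0.506 to 5.26 ± 1.77 FPKM (SD, n = 4 each; log2 difference 1.33, SE 0.22, limma adjusted p = 0.00337; scaled 1.16, adjusted p = 0.00642).

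Trib3 (ENSMUSG00000032715, chr2:152337422-152344032), a pseudokinase that ATF4 induces and that restrains it in return, was at 1.01, 1.003, 1.15 and 1.33 FPKM in WT and at 1.84, 2.29, 2.17 and 2.21 FPKM in RBX2iCKO. The values were tight within each group and the groups were apart. The mean was 1.89-fold higher (log2 difference 0.56, SE 0.09, limma adjusted p = 0.00331; scaled 0.40, adjusted p = 0.0126).

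Cebpb and Cebpg, C/EBP family partners of ATF4, did not pass. Cebpg had a log2 difference of 0.21 (95% interval 0.01 to 0.41, limma adjusted p = 0.0884). Cebpb was at 16.1, 16.1, 17.7 and 19.01 FPKM in WT and at 13.4, 15.0, 30.8 and 11.99 FPKM in RBX2iCKO. Thus 3 RBX2iCKO libraries lay below all WT libraries and replicate 3 above them all. Over all libraries the log2 difference came to -0.05 (SE 0.24, limma adjusted p = 0.881), and without RBX2iCKO replicate 3 it was -0.33 (adjusted p = 0.0245). Exons of Tmem189 on the opposite strand cover 20.7% of the Cebpb exon bases.

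**Figure D2:**
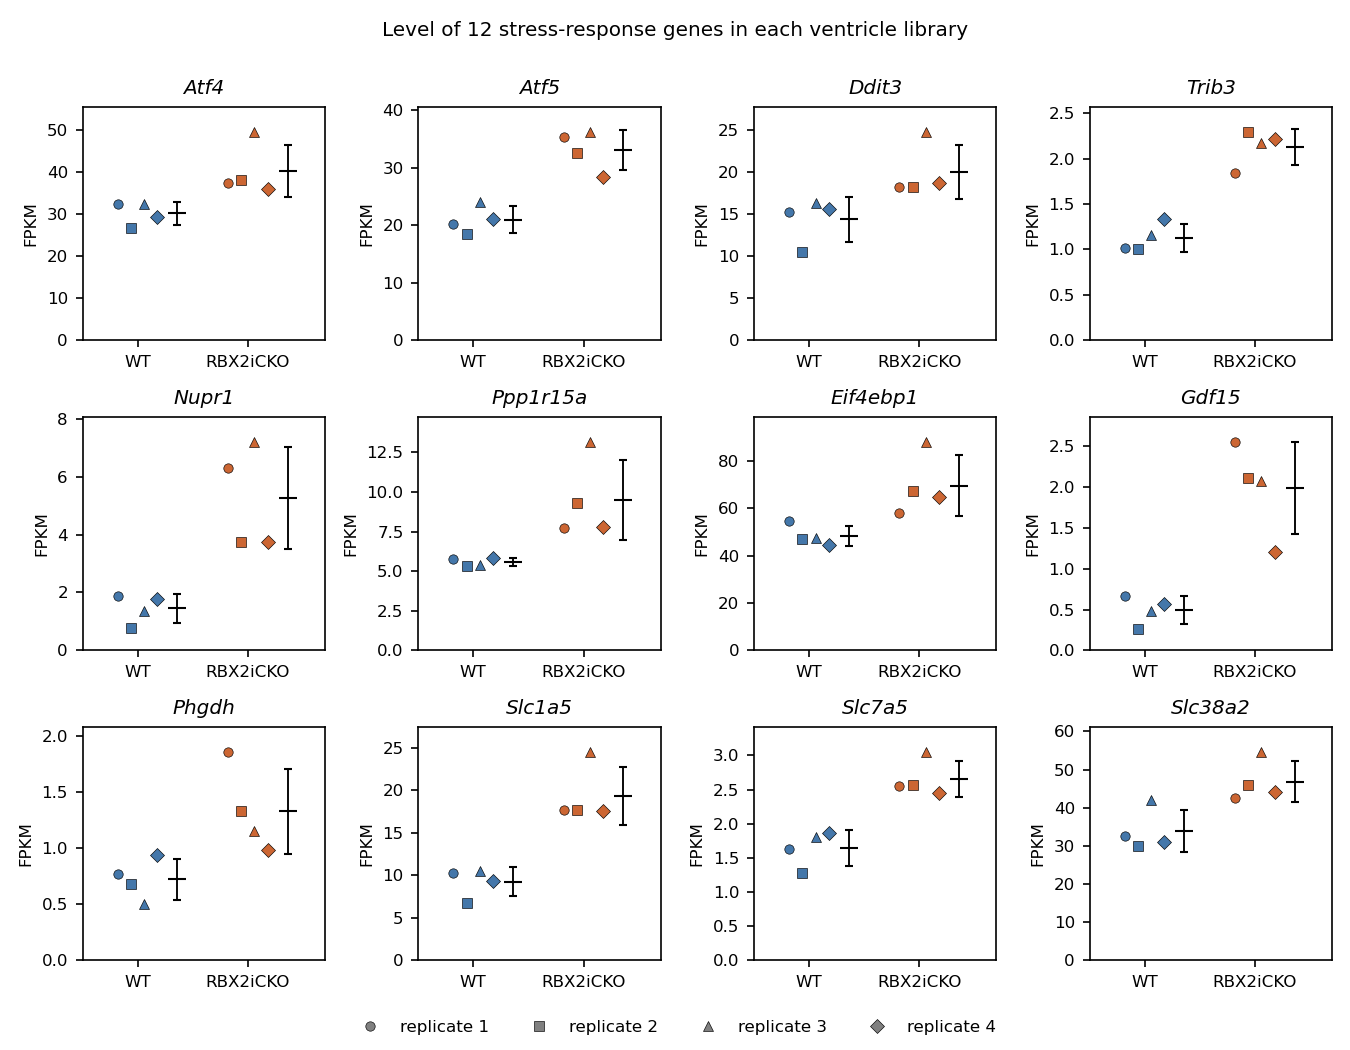
FPKM of 12 genes in each library, WT in blue and RBX2iCKO in orange, each marker shape standing for 1 replicate number, with the mean and SD of the 4 libraries in black and every axis starting at 0. The groups do not overlap in any of the 12 panels, and RBX2iCKO replicate 3 (triangle) is the highest library for Atf4, Atf5, Ddit3, Nupr1, Ppp1r15a, Eif4ebp1, Slc1a5, Slc7a5 and Slc38a2.

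ATF4 binds with C/EBP partners to a composite element, and the letters TGATGNAA, read on either strand (TTNCATCA on the other), were searched for in RefSeq windows running from 250 bases before to 50 bases after annotated transcript starts (GRCm38.p6). For 34 of the 40 genes 40 windows were found, and 10 of them (25%) held the letters. The share was 3.97% of all 32851 windows and 2.27% of the 12621 windows of tested genes. Because the 40 genes were chosen to include ATF4 targets, a higher share among them is no independent result. Of the 13 genes called higher that had a window, 2 held them, Nupr1 and Trib3. The other holders were Asns, Chac1, Gars, Aars and Vldlr, which were not called as deposited, and Fgf21, Pycr1 and Slc7a11. These last genes lay below the level for testing and could not be called in the main fit. Pycr1 was called higher in the fit with no filter. A match describes letters in this window, not a bound site. The stretches of Nupr1 and Trib3 are shown as the called genes, and those of Asns, Chac1 and Fgf21, chosen after their values were seen, as genes with the same letters that did not pass or were not tested. Capitals mark the match. Its first base lies 110, 23, 193 and 139 bases before the RefSeq start in Nupr1, Asns, Chac1 and Fgf21. In Trib3 it lies 14 bases after the RefSeq start. For Nupr1 and Trib3 the RefSeq start differs from the start in the gene coordinates given above. The Nupr1 RefSeq start lies inside those coordinates, and the Trib3 match lies upstream of them.
Nupr1 (chr7:126625547-126625606, minus strand): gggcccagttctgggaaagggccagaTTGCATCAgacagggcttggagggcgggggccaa
Trib3 (chr2:152344028-152344057, minus strand): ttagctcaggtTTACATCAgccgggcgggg
Asns (chr6:7693210-7693269, minus strand): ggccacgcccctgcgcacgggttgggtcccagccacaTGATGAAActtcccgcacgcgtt
Chac1 (chr2:119351023-119351082, plus strand): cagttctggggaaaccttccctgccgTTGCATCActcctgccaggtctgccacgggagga
Fgf21 (chr7:45615596-45615655, minus strand): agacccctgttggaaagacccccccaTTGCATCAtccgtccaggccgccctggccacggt

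Among 4 genes for the enzymes that set eIF2alpha phosphorylation, 1 was higher. Ppp1r15a encodes GADD34, the inducible subunit that brings the phosphatase to eIF2alpha and ends the response. It was at 5.77, 5.33, 5.38 and 5.81 FPKM in WT and at 7.72, 9.33, 13.2 and 7.78 FPKM in RBX2iCKO. The WT libraries were nearly equal, and RBX2iCKO replicate 3 was the highest of 4 values that all lay above them. Ppp1r15a differed by 0.65 on the log2 scale (SE 0.14, limma adjusted p = 0.0101), and by 0.42 after scaling (adjusted p = 0.0618). Ppp1r15b, the constitutive subunit, had a log2 difference of 0.17 (limma adjusted p = 0.0752) although its groups did not overlap. The kinases Eif2ak1 (HRI, which senses haem and mitochondrial stress signals) and Eif2ak4 (GCN2, which senses uncharged tRNA) had log2 differences of 0.13 and 0.22 (limma adjusted p = 0.212 and 0.0954), with intervals of -0.05 to 0.31 and 0.00 to 0.44.

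Growth brakes and other ATF4 targets had 2 of 5 members higher, and neither after scaling. Eif4ebp1, a repressor of cap-dependent translation, was at 54.5, 47.1, 47.3 and 44.6 FPKM in WT and at 58.0, 67.1, 87.9 and 64.5 FPKM in RBX2iCKO. WT replicate 1 came close to RBX2iCKO replicate 1, but the groups did not overlap. Eif4ebp1 differed by 0.50 on the log2 scale (SE 0.12, limma adjusted p = 0.0142) as deposited and by 0.25 after scaling (adjusted p = 0.188).

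Sesn2, an inhibitor of mTORC1 signalling, was at 1.49, 1.24, 0.873 and 1.44 FPKM in WT and at 1.86, 2.20, 2.10 and 1.73 FPKM in RBX2iCKO. The groups were apart by a small gap. Sesn2 differed by 0.40 on the log2 scale (SE 0.11, limma adjusted p = 0.0227) and by 0.24 after scaling (adjusted p = 0.149), and the call was lost without WT replicate 2 (adjusted p = 0.0516) and without RBX2iCKO replicate 2 (adjusted p = 0.0596).

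Ddit4 (REDD1, another mTORC1 brake) and Chac1 (an enzyme that degrades glutathione) varied most. Ddit4 was at 12.6, 13.1, 24.3 and 10.8 FPKM in WT and at 30.02, 21.4, 76.4 and 19.8 FPKM in RBX2iCKO. One library of each genotype, replicate 3 in both, stood far above the rest of its group, and WT replicate 3 overlapped the RBX2iCKO values. The log2 difference of 1.07 did not pass (SE 0.40, limma adjusted p = 0.0616), but it did without WT replicate 3 (1.31, adjusted p = 0.0428) or without RBX2iCKO replicate 4 (1.29, adjusted p = 0.0471). Chac1 was at 2.21, 3.03, 1.85 and 2.87 FPKM in WT and at 1.43, 2.70, 9.75 and 1.75 FPKM in RBX2iCKO. Among the RBX2iCKO libraries replicate 3 alone exceeded the highest WT value, and the log2 difference of 0.22 (95% interval -0.69 to 1.14, limma adjusted p = 0.675) turned to -0.25 without that library (adjusted p = 0.274). Vldlr, a lipoprotein receptor under ATF4 control, had a log2 difference of -0.24 (limma adjusted p = 0.0665), which was -0.49 after scaling (adjusted p = 0.0110) and -0.31 without WT replicate 1 (adjusted p = 0.0328).

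Gdf15 (ENSMUSG00000038508, chr8:70629393-70632456), a secreted stress cytokine, was at 0.664, 0.257, 0.483 and 0.574 FPKM in WT and at 2.55, 2.11, 2.08 and 1.20 FPKM in RBX2iCKO. The lowest RBX2iCKO library, replicate 4, was still above all WT libraries. The mean was 4.02-fold higher, 1.99 ± 0.565 against 0.494 ± 0.175 FPKM (SD, n = 4 each), with a log2 difference of 0.99 (SE 0.16, limma adjusted p = 0.00314; scaled 0.86, adjusted p = 0.00516). The values rest on 8 to 20 fragments per WT library and 39 to 75 per RBX2iCKO library, and the pseudocount of 1 understates the change of a gene at this level. Fgf21, the other mitokine, was listed at 0 in 7 libraries and at 0.111 FPKM in RBX2iCKO replicate 3. It was not detectable in the remaining libraries at this depth.

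Of the 5 tested enzymes of serine, asparagine and proline synthesis, 2 were higher, and neither after scaling. Phgdh, the first enzyme of serine synthesis from glycolytic intermediates, was at 0.770, 0.681, 0.499 and 0.937 FPKM in WT and at 1.86, 1.33, 1.15 and 0.983 FPKM in RBX2iCKO. WT replicate 4 and RBX2iCKO replicate 4 nearly met, though the groups did not overlap. Its log2 difference came to 0.43 (SE 0.13, limma adjusted p = 0.0335) as deposited and 0.30 after scaling (adjusted p = 0.130). The adjusted p rose to between 0.0590 and 0.0810 when WT replicate 1, 2 or 3 or RBX2iCKO replicate 1 or 2 was left out.

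Psat1, the second enzyme of serine synthesis, was at 1.20, 0.814, 1.39 and 0.813 FPKM in WT and at 1.79, 1.49, 0.970 and 1.55 FPKM in RBX2iCKO. Here RBX2iCKO replicate 3 was the lowest of its group and fell among the WT values. The log2 difference was 0.25 (95% interval -0.06 to 0.57, limma adjusted p = 0.167). Psph, the last enzyme of that path, had a log2 difference of 0.21 (limma adjusted p = 0.0982), and 10.4% of its exon bases lie opposite Cct6a, which was at 44.6 FPKM in WT beside 1.39 FPKM for Psph. Asns, asparagine synthetase and a textbook ATF4 target, was at 0.402, 0.959, 1.04 and 1.28 FPKM in WT and at 1.24, 0.861, 1.57 and 0.828 FPKM in RBX2iCKO. The groups overlapped widely, and the log2 difference was 0.16 (95% interval -0.23 to 0.54, limma adjusted p = 0.480).

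On the proline side, Aldh18a1, which makes the shared precursor of proline and ornithine, was at 2.82, 2.40, 2.28 and 3.05 FPKM in WT and at 4.25, 3.96, 3.47 and 3.22 FPKM in RBX2iCKO. The groups did not overlap, and the log2 difference of 0.38 (SE 0.10, limma adjusted p = 0.0205) became 0.18 after scaling (adjusted p = 0.202). Without WT replicate 2 or 3 or RBX2iCKO replicate 1 or 2 its adjusted p was 0.0515 to 0.0550. Pycr1, the mitochondrial enzyme of the last step to proline, was at 0.278, 0.221, 0.324 and 0.304 FPKM in WT and at 0.860, 0.655, 0.622 and 0.606 FPKM in RBX2iCKO. Each RBX2iCKO value was above each WT value, but its mean lay under the limit of 0.5 FPKM. In the fit with no filter on low values its mean was 2.43-fold higher, with a log2 difference of 0.39 (limma adjusted p = 0.00826). That fit called 16 of the 40 genes higher, beside 15.7% of all genes called higher and 1.67% lower. Those shares are over 22687 genes, any with a value above 0 in at least 1 library, so they are not matched to the 40 in level. Among genes of at least 0.5 FPKM the shares called higher were 45.9% and 33.5%.

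The folate one-carbon enzymes carry carbon from serine to purines, thymidylate and formate. Of 5, 1 was higher as deposited and after scaling. Mthfd2 (ENSMUSG00000005667, chr6:83305691-83325908), the mitochondrial dehydrogenase and cyclohydrolase that is low in most adult tissue, was at 1.11, 0.499, 1.22 and 1.87 FPKM in WT and at 4.30, 3.85, 3.60 and 3.34 FPKM in RBX2iCKO. The lowest RBX2iCKO library lay well above the highest WT library. The mean was 3.21-fold higher (1.18 ± 0.562 to 3.77 ± 0.406 FPKM, SD, n = 4 each), with a log2 difference of 1.17 (SE 0.17, limma adjusted p = 0.00264) and a scaled difference of 1.01 (adjusted p = 0.00463).

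The other 4 folate enzymes did not pass as deposited. Shmt2, the mitochondrial enzyme that feeds Mthfd2 with carbon from serine, was the most abundant of these enzymes at 19.5, 18.0, 20.1 and 18.8 FPKM in WT and at 17.3, 18.8, 19.7 and 18.9 FPKM in RBX2iCKO. The groups overlapped, with a log2 difference of -0.03 (95% interval -0.18 to 0.12, limma adjusted p = 0.733), which was -0.27 after scaling (adjusted p = 0.0186). Mthfd1l, which releases formate from mitochondria, had a log2 difference of 0.02 (95% interval -0.29 to 0.33, limma adjusted p = 0.908). The cytosolic enzymes Shmt1 and Mthfd1 had log2 differences of 0.14 and -0.04 (limma adjusted p = 0.255 and 0.711), and Mthfd1 was at -0.27 after scaling (adjusted p = 0.0372). Mthfd2l, an isozyme of Mthfd2 outside the 40, had 2.29 ± 0.0900 FPKM on average in WT against 3.18 ± 0.347 FPKM in RBX2iCKO (SD, n = 4 each; log2 difference 0.34, limma adjusted p = 0.0133; scaled 0.15, adjusted p = 0.213).

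**Figure D3:**
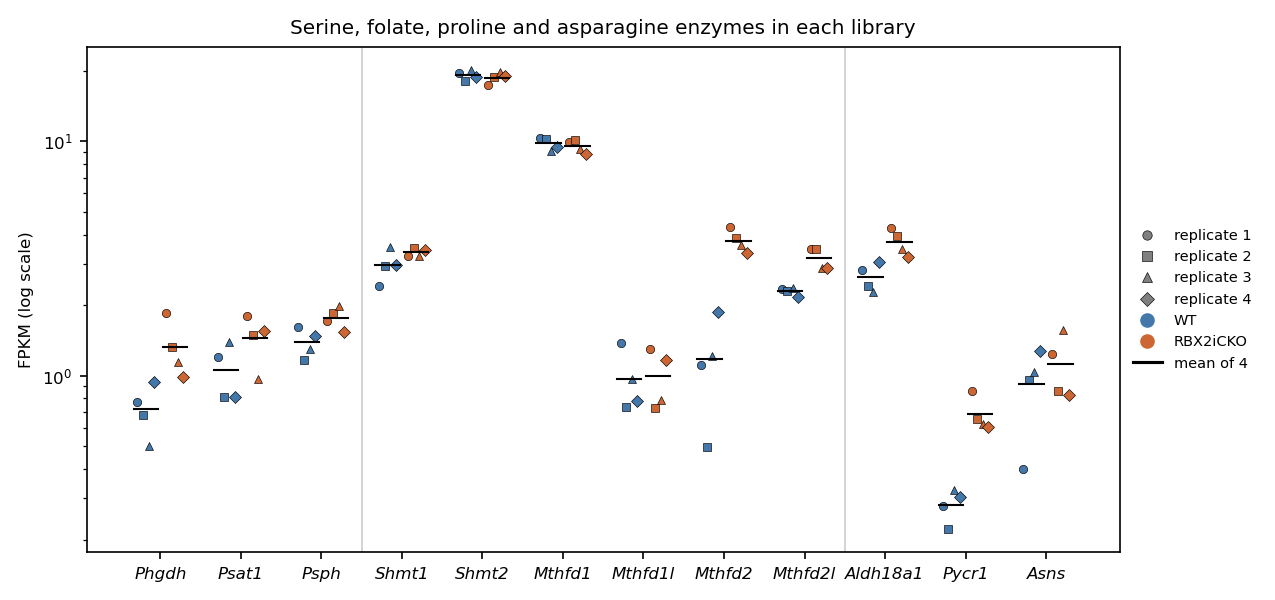
FPKM on a log axis of 12 enzymes of serine synthesis (left), folate one-carbon metabolism (middle) and proline and asparagine synthesis (right), in 4 WT (blue) and 4 RBX2iCKO (orange) libraries, with the mean as a line. Mthfd2 and Pycr1 show a clear gap between the groups, whereas Shmt2, Mthfd1, Mthfd1l and Asns overlap; Mthfd2l is shown beside Mthfd2 as its isozyme.

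Amino acid carriers had 3 of 5 tested members higher, 2 of them after scaling. Slc1a5 (ENSMUSG00000001918, chr7:16781340-16798274), the ASCT2 exchanger for glutamine and other neutral amino acids, was at 10.2, 6.80, 10.5 and 9.38 FPKM in WT and at 17.7, 17.7, 24.5 and 17.5 FPKM in RBX2iCKO. The groups were far apart and 3 RBX2iCKO libraries were nearly equal, with replicate 3 above them. The mean was 2.10-fold higher (log2 difference 0.99, SE 0.15, limma adjusted p = 0.00253; scaled 0.76, adjusted p = 0.00579).

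Slc7a5 (ENSMUSG00000040010, chr8:121881150-121907694), the LAT1 carrier of large neutral amino acids, was at 1.63, 1.28, 1.81 and 1.87 FPKM in WT and at 2.55, 2.57, 3.05 and 2.46 FPKM in RBX2iCKO. No RBX2iCKO library came down to the WT values. The mean was 1.61-fold higher (log2 difference 0.47, SE 0.10, limma adjusted p = 0.00837; scaled 0.30, adjusted p = 0.0474). The scaled call was lost without RBX2iCKO replicate 3 (0.25, limma adjusted p = 0.0855). Slc3a2, the heavy chain that LAT1 needs at the cell surface, had a log2 difference of 0.22 (95% interval -0.06 to 0.49, limma adjusted p = 0.187).

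Slc38a2, the SNAT2 carrier of small neutral amino acids, was at 32.5, 30.1, 42.1 and 31.1 FPKM in WT and at 42.5, 45.9, 54.6 and 44.2 FPKM in RBX2iCKO. WT replicate 3 came up to just below the lowest RBX2iCKO library. As deposited the log2 difference came to 0.46 (SE 0.12, limma adjusted p = 0.0169), and 0.21 after scaling (adjusted p = 0.230). Slc7a1, the carrier of cationic amino acids, averaged 11.5 ± 2.04 FPKM in WT against 8.67 ± 1.25 FPKM in RBX2iCKO (SD, n = 4 each), with a log2 difference of -0.37 (limma adjusted p = 0.0522) that was -0.60 after scaling (adjusted p = 0.0105). Its adjusted p was 0.0339 without WT replicate 1 and 0.0354 without RBX2iCKO replicate 2. Slc7a11, the cystine carrier, was at or below 0.0225 FPKM in all libraries, which is 0 to 4 fragments, too few for a comparison.

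Cytosolic tRNA synthetases, which charge tRNAs with amino acids, had 2 of 5 members higher, and neither after scaling. Sars, for serine, was at 15.0, 14.7, 14.6 and 15.1 FPKM in WT and at 19.5, 19.4, 22.8 and 16.9 FPKM in RBX2iCKO. The WT libraries were nearly equal and all RBX2iCKO libraries were above them. Sars differed by 0.37 on the log2 scale (SE 0.09, limma adjusted p = 0.0118), and by 0.13 after scaling (adjusted p = 0.318).

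Nars, for asparagine, was at 27.9, 27.2, 28.0 and 28.9 FPKM in WT and at 32.2, 31.6, 31.7 and 30.3 FPKM in RBX2iCKO. As deposited the groups were separate but close, and after scaling every RBX2iCKO value lay below every WT value. The log2 difference of 0.16 (SE 0.06, limma adjusted p = 0.0465) was below the median of all genes, turned to -0.08 after scaling (adjusted p = 0.311), and had an adjusted p of 0.0590 to 0.0944 when any 1 of the 8 libraries was left out. Aars, Gars and Wars had log2 differences of 0.16, 0.09 and 0.32 and did not pass (limma adjusted p = 0.171, 0.251 and 0.159). Wars stood at 28.2 FPKM in RBX2iCKO replicate 3 and at 15.4 to 16.9 FPKM in the other RBX2iCKO libraries.

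RBX2iCKO replicate 3 was the highest of the 4 RBX2iCKO libraries for 23 of the 37 genes (62.2%), against 30.4% of all genes tested. Replicates 1, 2 and 4 were highest for 8, 6 and 0 of the 37. The value of replicate 3 was more than 1.5 times the mean of the other 3 for 7 of the 37 genes. That is a larger share than the 7.02% of all genes. These 7 were Chac1 (4.97 times), Ddit4 (3.22), Cebpb (2.28), Wars (1.74), Asns (1.60), Ppp1r15a (1.59) and Nupr1 (1.56). Serine and folate genes lay on both sides of 1, with a ratio of 0.602 for Psat1, 0.739 for Mthfd1l, 0.827 for Phgdh and 0.941 for Mthfd2, and of 1.07 for Shmt2 and 1.17 for Psph. The median ratio was 1.17 over the 37 and 0.99 over all genes.

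That library also differed in other markers. Its sum of the 11 macrophage markers, 208 FPKM, was the lowest of the RBX2iCKO libraries, where the highest was 406 FPKM. Mrc1 was at 1.23 FPKM against 10.1 to 12.7 FPKM in the others, and Csf1r at 3.44 FPKM against 14.0 to 21.5 FPKM. These 2 markers were picked by no rule set beforehand, and the sum of the list differed by a smaller factor. Its sum of atrial markers, 409.7 FPKM, was the lowest of the RBX2iCKO libraries too, as were the fibroblast sum of 1482 FPKM and the mural sum of 247 FPKM, while the endothelial sum of 988 FPKM was the highest. Eif2ak2 (PKR, the eIF2alpha kinase that senses double-stranded RNA and is induced by interferon), chosen after its values were seen, was at 14.4 FPKM there and at 5.22 to 5.48 FPKM in the other RBX2iCKO libraries. The part of these differences in the pattern was not tested. Without this library 15 of the 37 genes were higher and 1, Cebpb, was lower, beside 33.6% and 3.46% of all genes, and the median log2 difference of the 37 was 0.19 against 0.21 for all genes. The differences of Mthfd2 (1.18), Gdf15 (0.96), Slc1a5 (0.88), Nupr1 (1.19), Trib3 (0.55), Atf5 (0.59) and Slc7a5 (0.42) each kept a limma adjusted p of at most 0.0136 without it. After scaling without it, Slc7a5 no longer passed and the other 6 did, Ppp1r15a joined the higher genes (0.27, limma adjusted p = 0.0362), and among the lower genes Cebpb (-0.57, adjusted p = 0.00321) came in while Mthfd1 (-0.26, adjusted p = 0.0584) dropped out.

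**Figure D4:**
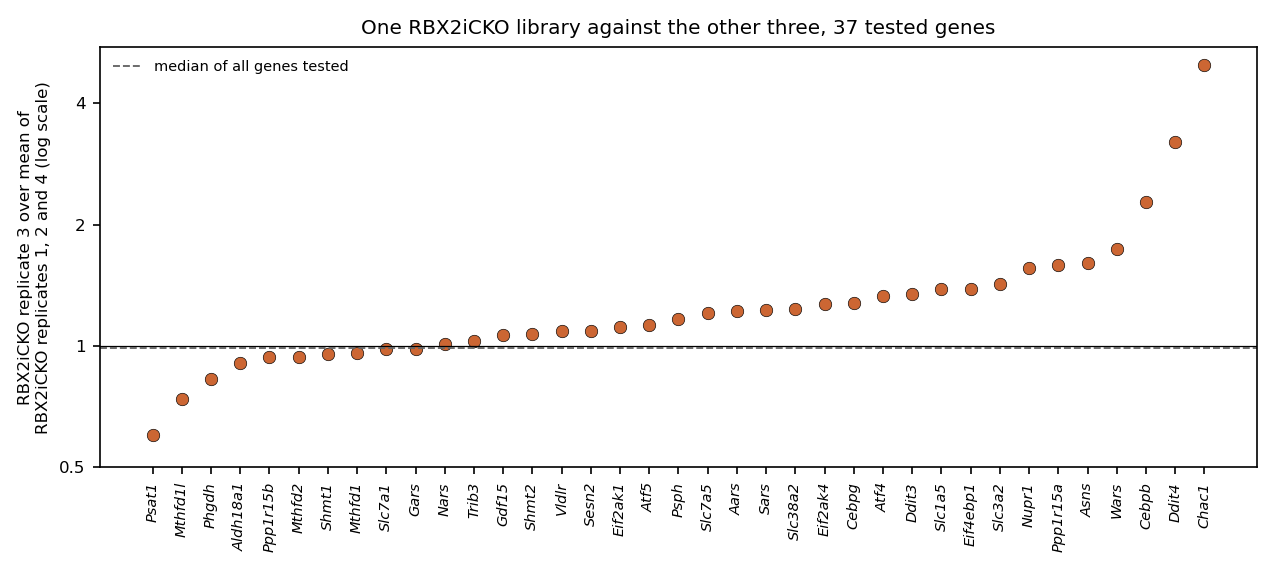
FPKM in RBX2iCKO replicate 3 divided by the mean of RBX2iCKO replicates 1, 2 and 4, on a log axis, for the 37 tested genes in rising order; the broken line is the median ratio of all genes at 0.99. Chac1, Ddit4 and Cebpb lie furthest above the line, and Psat1 and Mthfd1l furthest below it.

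Related gene lists were counted in the same fit, and no list was tested as a set. Of all genes, 33.5% were higher and 3.52% lower as deposited, and 8.78% and 10.9% after scaling. Among 24 tested of 25 other ATF4 target and feedback genes, 9 were higher and 2 lower as deposited, and 2 and 3 after scaling, with a median log2 difference of 0.19 beside 0.21 for all genes. Pck2, mitochondrial phosphoenolpyruvate carboxykinase, rose from 2.80 ± 0.551 to 4.92 ± 0.506 FPKM (SD, n = 4 each; log2 difference 0.65, limma adjusted p = 0.00445; scaled 0.45, adjusted p = 0.0263). Bbc3 (PUMA, an activator of apoptosis) rose from 1.82 ± 0.545 to 3.72 ± 0.411 FPKM (log2 difference 0.76, limma adjusted p = 0.00452; scaled 0.58, adjusted p = 0.0191). Both genes stayed higher after scaling. Eif2ak3 (PERK, the eIF2alpha kinase of the endoplasmic reticulum) was 1.37-fold higher (log2 difference 0.35, limma adjusted p = 0.0128; scaled 0.15, adjusted p = 0.207).

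Other amino acid carriers had 12 of 20 tested members higher and 1 lower, and 4 and 2 after scaling, with a median log2 difference of 0.38. Slc6a6, the taurine carrier, rose from 30.1 ± 2.84 to 47.1 ± 4.06 FPKM (SD, n = 4 each; log2 difference 0.63, limma adjusted p = 0.00228; scaled 0.38, adjusted p = 0.0255). Slc1a3, a glutamate and aspartate carrier, was 2.64-fold higher at a low level, 0.584 ± 0.257 against 1.54 ± 0.294 FPKM (log2 difference 0.69, limma adjusted p = 0.00660; scaled 0.57, adjusted p = 0.0180). Slc43a2, a carrier of large neutral amino acids, was 1.63-fold higher (log2 difference 0.56, limma adjusted p = 0.00635; scaled 0.36, adjusted p = 0.0565).

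Of 21 tested of 24 other genes of the folate, glycine and methionine cycles, 4 were higher and 1 lower, and 1 and 2 after scaling. The higher genes include Tyms, whose WT mean lay below 0.5 FPKM. It was tested only through its RBX2iCKO values. Tyms, thymidylate synthase, which also serves DNA replication, rose from 0.465 ± 0.0588 to 0.924 ± 0.0429 FPKM (SD, n = 4 each; log2 difference 0.39, limma adjusted p = 0.00928; scaled 0.29, adjusted p = 0.0386, and 0.0651 on that scale without RBX2iCKO replicate 3). Amt, of the glycine cleavage system, was 1.58-fold higher (log2 difference 0.51, limma adjusted p = 0.0101; scaled 0.32, adjusted p = 0.0634). Translation genes were counted too. Of 10 subunits of eIF2 and eIF2B and related factors, 2 were higher, Eif2a and Eif2b2, at log2 differences of 0.23 and 0.29 (limma adjusted p = 0.0370 and 0.0474), and 1 of 15 other cytosolic tRNA synthetases, Cars, at 0.30 (limma adjusted p = 0.0441). None of these 3 calls held after scaling, where 6 of the 15 synthetases were lower.

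Chaperone genes of other stress branches were counted as well. Of 17 genes of the ATF6 and XBP1 chaperone branch in the endoplasmic reticulum, 1 was higher and 1 lower as deposited, and 8 were lower after scaling, with medians of -0.11 and -0.36. Hspa5 (BiP, the main chaperone of that compartment) was at 169.8, 168, 248 and 183 FPKM in WT and at 133, 120.3, 125 and 127 FPKM in RBX2iCKO. Every RBX2iCKO library was below every WT library (log2 difference -0.58, SE 0.12, limma adjusted p = 0.00735). Ern1 (IRE1alpha, the sensor that activates XBP1) was 1.27-fold higher (log2 difference 0.27, limma adjusted p = 0.0293; scaled 0.08, adjusted p = 0.532).

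Of 13 mitochondrial chaperones and proteases, 4 were lower and 1 higher, and 9 were lower after scaling. Hspa9 and Hspd1, chaperones of protein import and folding in the matrix, fell from 250.1 ± 7.54 to 201 ± 11.9 FPKM and from 154 ± 3.02 to 126 ± 9.78 FPKM (SD, n = 4 each; limma adjusted p = 0.00738 and 0.0120). Hspe1, the partner of Hspd1, was at 64.6 ± 5.15 and 77.0 ± 1.41 FPKM (log2 difference 0.25, limma adjusted p = 0.0203), with a scaled difference of 0.00 (adjusted p = 0.989). The genes Hspd1 and Hspe1 overlap head to head at their starts. Of 17 mitochondrial tRNA synthetases, 1 was lower, Aars2 (log2 difference -0.23, limma adjusted p = 0.0437), and 10 were lower after scaling, with medians of -0.10 and -0.32. The calls of Eif2a, Eif2b2, Cars, Ern1, Hspe1 and Aars2 were each lost in at least 2 of the 8 fits with a library left out.

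**Figure D5:**
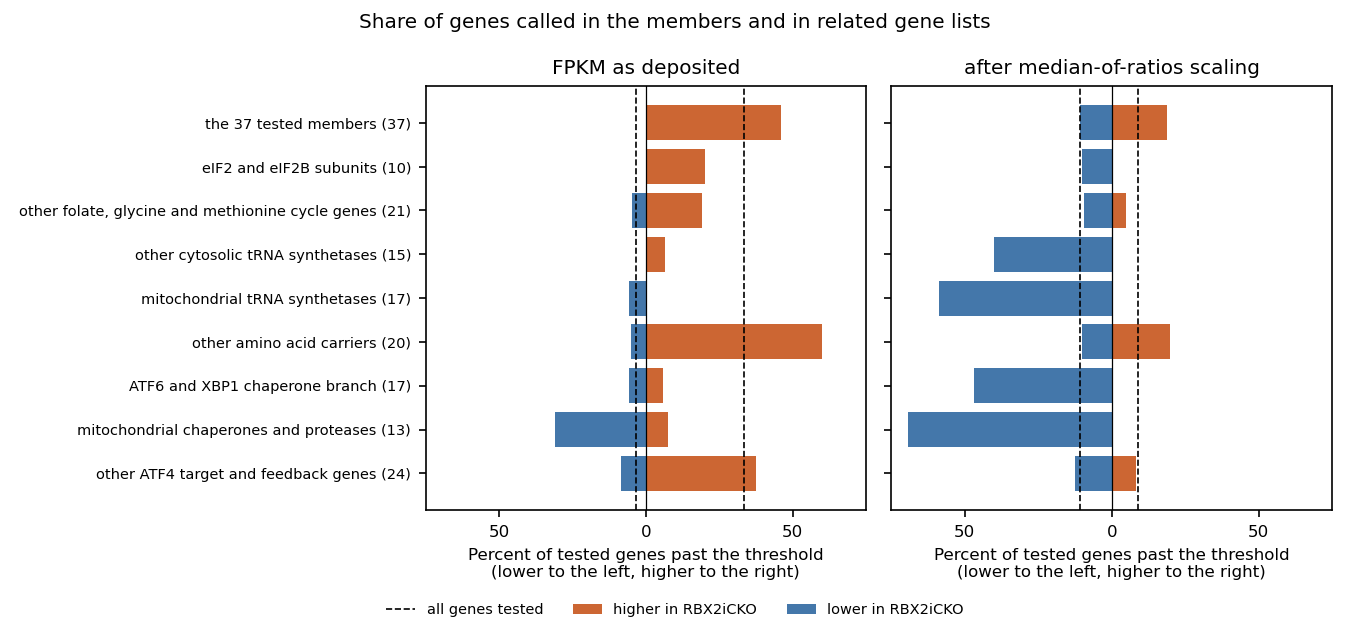
Percent of tested genes called higher (orange, to the right) and lower (blue, to the left) in RBX2iCKO at an adjusted p under 0.05, for the 37 tested genes and 8 related lists, with the number tested in brackets. The left panel uses FPKM as deposited and the right panel median-of-ratios scaling; broken lines are the shares of all 13050 genes, 33.5% higher and 3.52% lower on the left and 8.78% and 10.9% on the right.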

How the data were processed

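Per the labels, polyA RNA was taken from minced ventricles kept in RNAlater with TRIzol and sequenced by Novogene. The authors deposited FPKM values for 35275 genes, 1 column per library. Per the submitters' processing notes they used mm10; which aligner, counter, annotation or strandedness they used is not given in the sources used here. Symbols and coordinates came from GENCODE M21 (97.8% of identifiers matched), promoter letters from RefSeq (GRCm38.p6). Whole fragments were recovered from the deposited FPKM for 99.7% of tested genes within 0.01, which gave the library totals. Differences were tested with limma 3.58.1 (R 4.3.3, lmFit and eBayes with trend, two-sided) on log2(FPKM + 1), for 13050 genes with a mean of at least 0.5 FPKM, with Benjamini-Hochberg adjustment over all of them and a threshold of 0.05; a log2 difference on this scale understates changes of low genes. The procedure was tested on simulated data. Alternatives were a pseudocount of 0.1, no filter, a limit of 5 FPKM, median-of-ratios scaling, removal of mitochondrial-encoded genes, a covariate for the 2 series of title numbers, limma voom on recovered fragments, and each library left out. Scaling without RBX2iCKO replicate 3 was added after seeing the data. Members and gene lists were chosen with earlier results of these data known. By rule, values per library are given for genes past the threshold without overlap and for Atf4, Ddit3, Asns, Phgdh, Psat1, Shmt2 and Fgf21. Those of Cebpb, Ddit4, Chac1 and Pycr1 are given outside that rule. Of other lists, the up to 3 smallest p-values are named.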

Additional observations from a re-analysis of the deposited data

Results flagged for a closer look

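Of 75 groups of 4 libraries checked among the genes above and Rnf7, 9 had a library standing apart from the other 3 by more than the 95% limit of Dixon's gap test. Chance flags about 1 in 20 groups, or 3.8 here, and genes of a library are not independent. In 7 of the 9, RBX2iCKO replicate 3 was the high library. It stood at 49.57 FPKM for Atf4 (others 36.11 to 38.16), at 24.76 for Ddit3 (18.21 to 18.71), at 30.81 for Cebpb (11.99 to 15.03) and at 8.323 for Cebpg (6.352 to 6.654). It was likewise high for Chac1 at 9.751 FPKM (others 1.433 to 2.704), for Slc1a5 at 24.48 (17.54 to 17.7) and for Wars at 28.16 (15.43 to 16.95). The remaining cases were WT replicate 3, high for Ddit4 at 24.32 FPKM (others 10.76 to 13.06), and RBX2iCKO replicate 1, low for Vldlr at 36.31 FPKM (others 43.52 to 44.81).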

How the results depend on the processing

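The count of the 37 genes called higher was 17, 17 with a pseudocount of 0.1, 16 with voom and 15 with no filter, where Ddit3 (adjusted p = 0.0731) and Phgdh (0.0586) were lost; Pycr1, tested there alone, made 16 of all 40. It was 9 with a limit of 5 FPKM (fewer genes are tested there), 10 without mitochondrial-encoded genes, 7 after scaling, 7 after scaling without RBX2iCKO replicate 3 (Ppp1r15a in, Slc7a5 out), and 11 to 16 with 1 library left out. The count called lower was 0; it was 1 with the limit of 5 FPKM and with voom, 2 without mitochondrial-encoded genes and with the title-number covariate, 4 after scaling and 4 after scaling without RBX2iCKO replicate 3 (Cebpb in, Mthfd1 out), and 0 to 2 with 1 library left out. Of all genes, 4374 were higher and 459 lower. The count higher was 2478 with the limit of 5 FPKM, 1146 after scaling, 1388 after scaling without RBX2iCKO replicate 3, 2080 without mitochondrial-encoded genes and 2895 to 4386 with 1 library left out. The count lower was 1419, 1434 and 711 under those 3 scalings and 327 to 452 with 1 library left out. The Rnf7 difference lay between -2.47 and -2.19 throughout.

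With the title-number covariate 15 of the 37 were higher, beside 3847 of all genes, where 478 were lower. Ddit3 (limma adjusted p = 0.0582) and Nars (0.0711) were lost. All 17 genes called as deposited had the same sign within both series. No paired analysis was possible because the labels give the groups no shared replicate numbers.

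Log2 differences changed sign for these genes, most of them small and not called as deposited, and the cause was not tested. After scaling they were -0.00852 for Cebpg, -0.0912 for Eif2ak1, -0.0515 for Ppp1r15b, -0.101 for Mthfd1l, -0.0549 for Shmt1, -0.0215 for Slc3a2, -0.0764 for Aars, -0.158 for Gars, -0.0847 for Nars and -0.00608 for Eif2a. After scaling without RBX2iCKO replicate 3 they were -0.0861 for Cebpg, -0.126 for Eif2ak1, -0.00230 for Eif2ak4, -0.0329 for Ppp1r15b, -0.422 for Chac1, -0.0630 for Asns, -0.0538 for Mthfd1l, -0.0440 for Shmt1, -0.142 for Slc3a2, -0.145 for Aars, -0.155 for Gars, -0.113 for Wars, -0.0895 for Nars and -0.00674 for Hspe1. Without mitochondrial-encoded genes they were -0.0334 for Mthfd1l and -0.0272 for Gars. With 1 library left out, Cebpb ranged from -0.334 to 0.0963, Chac1 from -0.246 to 0.469, Mthfd1l from -0.0509 to 0.116 and Shmt2 from -0.0556 to 0.00427. Counting noise limits the genes near 0.5 FPKM.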
